A study of Solea senegalensis with 30 samples.

Results

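Plasma miRNAs of kisspeptin-injected males of the Senegalese sole (Solea senegalensis) were compared between 4 d and 2 d after the injection. The comparison held 11 of the 30 libraries analysed, which were all the kisspeptin males: 6 fish at 2 d (A1-6, A1-7, A1-10, A1-12, A1-13 and A1-11-12) and 5 fish at 4 d (A4-3, A4-8, A4-9, A4-10 and A4-17). They were chosen by sex, treatment and day in the sample labels, and no measured value was used. All 11 were cultured (G1) breeders that had received 1 intramuscular dose of the KISS2-10 decapeptide at 250 µg/kg, and each library came from 1 fish. The males to which they are set for reference had received phosphate buffered saline, 4 of them sampled at 2 d and 5 at 4 d. The fish of 2 d and of 4 d were kept in different tanks and no fish was sampled at both days, so day and tank cannot be told apart. Sequencing took place in 2 runs. The labels do not say which run a library belonged to, and its part in any value below was not tested.

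Kisspeptins are peptides made in the brain that stand upstream of the pituitary hormones driving the gonads. In mammals they act on the neurons that release gonadotropin-releasing hormone, a route that does not hold in the same way for all fish. miRNAs are short RNAs that pair with messenger RNAs mainly through bases 2 to 8 of the miRNA, the seed, and lower their stability or translation. In plasma they are carried in vesicles and with proteins. Plasma miRNAs come from blood cells, vessel walls, liver, muscle and other tissues, so a level in plasma does not name the organ behind it, and fewer cells of a type and less RNA from each cell cannot be told apart.

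The deposited rows are isomiRs, the individual read sequences counted under a miRNA name, and one name can hold many of them. The sequences below are the most abundant isomiR, over the 11 libraries, of the 5 names with the smallest p for the day difference, then of the 2 other names with the seed of miR-1, then of the 4 names with the highest mean level. They are copied from the deposited table, 5′ to 3′ and written with T, with the seed in capitals.
miR-182-5p: tTTGGCAAtggtagaactcaca
miR-1a-3p: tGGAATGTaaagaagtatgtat
miR-30b: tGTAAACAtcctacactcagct
miR-2188: aAGGTCCAacctcacatgtcct
miR-25-3p: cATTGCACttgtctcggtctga
miR-1c: tGGAATGTaaagaagtatgtac
miR-206-3p: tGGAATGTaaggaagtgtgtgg
miR-22a: aAGCTGCCagctgaagaactgt
miR-21: tAGCTTATcagactggtgttgg
miR-451: aAACCGTTaccattactgagt
miR-16b: tAGCAGCAcgtaaatattggag
A second isomiR of miR-1a-3p, of 21 nt, matters below.
miR-1a-3p of 21 nt: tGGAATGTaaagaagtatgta

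Totals ran from 35429 to 157656 counts at 2 d and from 41197 to 139680 at 4 d. They cover 172 names, of which the first is miR-122-3p and the last miR-459, and the let-7 family and other names are not analysed here. Of the 172 names, 154 had a count in the 11 libraries, 37 had one in all 11, and 104 reached 1 cpm (counts scaled to the library total) in at least 4 fish and were tested. Where a name has 0 counts, as many as 3 may have been missed by counting error alone, equal to 19.03 cpm in the largest library and 84.7 cpm in the smallest. Levels are given as log2 cpm after adding a prior count of 1, and 0 counts appear there as 3.71. Between fish of the same day the counts had a common dispersion of 1.79, a coefficient of variation of 134%, so the median standard error of a day difference was 1.27 on the log2 scale.

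By mean log2 level over the 11 libraries, miR-22a, miR-21, miR-451 and miR-16b led the names analysed here, followed by miR-146a, miR-126a-3p, the red cell miRNA miR-144-5p, miR-3963, miR-15a and miR-125a, and together these held 73.2% of all counts. miR-451 and miR-144 are made in developing red blood cells, miR-126 in endothelium and miR-146a in leukocytes, so defining miRNAs of the blood and its vessels were present in every library. The muscle miRNA miR-1a-3p ranked 12 by mean level.

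Between 2 d and 4 d the plasma profile as a whole was not separated beyond the spread between fish. Day took up 9.15% of the variation in log2 cpm over the 104 names (pseudo-F 0.906), and p was 0.643 in the one-sided exact permutation test over all splits of the fish into 6 and 5, whose smallest possible p is 0.00216. Nor did the general properties of the libraries differ beyond their spread. The log2 total count was 15.92 ± 0.72 (SD, n = 6) at 2 d and 16.22 ± 0.74 (n = 5) at 4 d. At the depth of the smallest library 85.7 ± 9.59 names were expected at 2 d and 88.6 ± 17.9 at 4 d. Reads of 21 and 22 nt, the usual length of a miRNA, made up 77.5% ± 4.06 of the counts at 2 d and 78.3% ± 4.01 at 4 d. The 10 highest names of each library held 79.8% ± 4.94 at 2 d and 82.4% ± 7.19 at 4 d. Exact permutation p-values of these 4 values, two-sided, lay between 0.494 and 0.771, and each was 0.771 after adjustment over the 4, where the smallest p the design allows is 0.00433.

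No miRNA passed the threshold of the day difference in edgeR. Of the 104 names, 0 had an adjusted p under 0.05 (Benjamini-Hochberg over the 104), 43 were higher and 61 lower at 4 d, and the median log2 fold change was −0.32. At an unadjusted p under 0.05, 5 names were lower (4.81% of those tested) and 0 were higher. They were miR-182-5p, miR-1a-3p, miR-30b, miR-2188 and miR-25-3p. limma-voom and DESeq2 each called 1 name (0.962% of the 104), which was miR-182-5p in both. DESeq2 gave no p-value for some of the 104, among them miR-26a, miR-133a-3p and miR-150, so its adjustment covered fewer names. In no name of the 104 did the levels of the 2 d and 4 d fish fail to overlap.

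**Figure D1:**
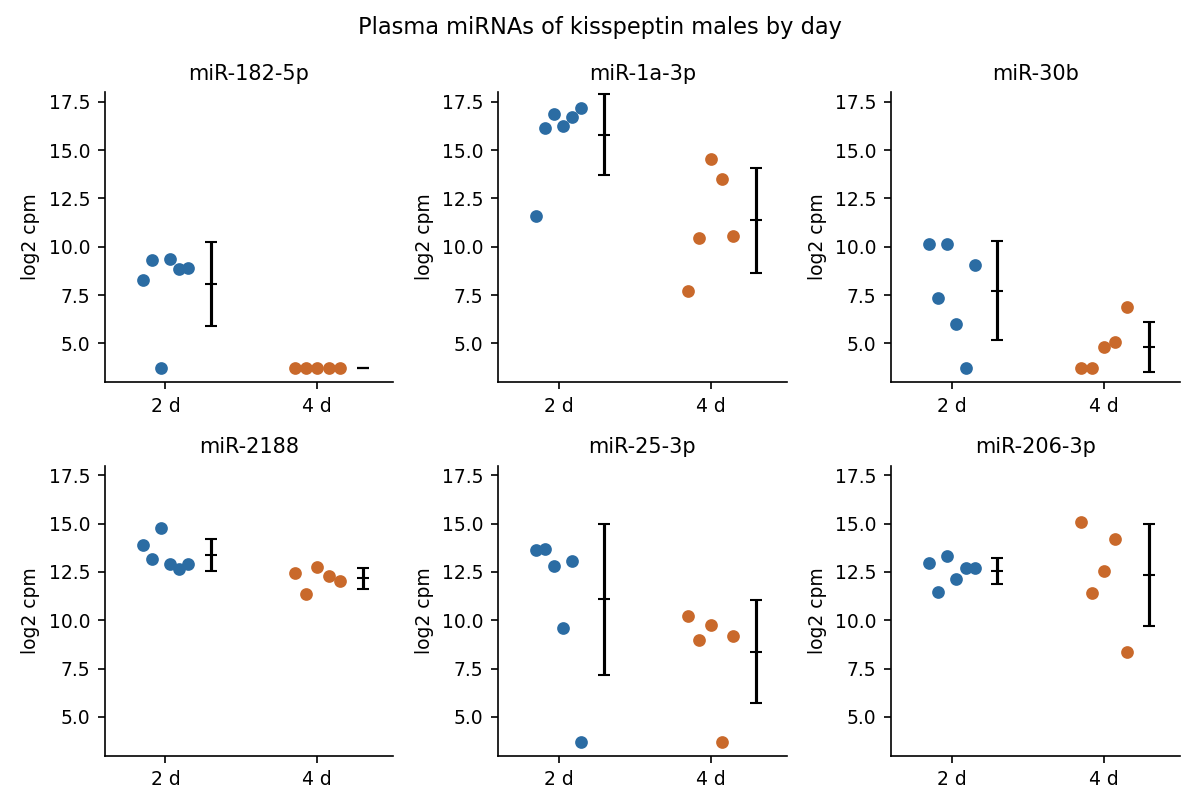
Level of 6 miRNAs in each kisspeptin male (log2 cpm, 1 point a fish, 6 at 2 d and 5 at 4 d), with the mean and SD beside the points. The first 5 panels are the names with the smallest p and the last is miR-206-3p, which shares the seed of miR-1a-3p. miR-182-5p lay at 3.71, a count of 0, in all 5 fish of 4 d, while the 2 d and 4 d fish overlapped in every panel.

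miR-182-5p, a member of the miR-183/96/182 cluster that is best known from sensory organs, was counted in 5 of 6 fish at 2 d and in 0 of 5 at 4 d. Its counts at 2 d were 0 at the lowest (A1-10), 27 at the median and 60 at the highest (A1-11-12), and all 5 libraries of 4 d had 0, so A1-10 was the one fish of 2 d that looked like those of 4 d. The mean at 2 d was 429 ± 304 cpm (SD, n = 6). It was 5.88-fold above the 72.8 cpm that counting error alone allows for a count of 0 in the smallest library of 4 d. That floor leaves out the spread between fish, so the ratio is not a lower bound on the day difference. The edgeR log2 fold change, which depends on the prior count here, was −8.00 ± 1.85 (SE) with an unadjusted p of 0.0016 and an adjusted p of 0.167. Adjusted p was 0.0389 in limma-voom and 0.000468 in DESeq2, and 0.0315 in edgeR without A1-10, the only fish of 2 d at 0. With 0 counts at 4 d, miR-182-5p entered the test only through the fish of 2 d, the group in which it was high, so these p-values are not independent support for the difference. The 5 isomiRs of miR-182-5p with a count were spread over the fish: the form of 22 nt was counted in 4 of the 5 fish and the fifth, A1-7, held forms of 21 and 19 nt. miR-183, of the same cluster, took another course: its counts ran from 0 to 27 at 2 d and were 24, 0, 107, 23 and 8 at 4 d, and its log2 fold change was 0.81 ± 1.40 (adjusted p = 0.958 in edgeR).

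miR-1a-3p, the miRNA of skeletal and heart muscle that represses non-muscle genes, had the second smallest p. Its level at 2 d was 11.59 at the lowest, 16.48 at the median and 17.15 at the highest, and at 4 d it was 7.69, 10.47, 14.54, 13.52 and 10.58 in A4-3, A4-8, A4-9, A4-10 and A4-17. All fish of 2 d but A1-6 lay above all fish of 4 d. The log2 fold change was −3.50 ± 1.12 (SE), with an adjusted p of 0.393 in edgeR, 0.443 in limma-voom and 0.0538 in DESeq2. In the sum over all names numbered miR-1 it was −3.25 with an adjusted p of 0.184.

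The day difference of miR-1a-3p rested largely on the single isomiR of 22 nt printed above. That form had 4829, 8060, 4383, 3647 and 16354 counts in A1-7, A1-10, A1-12, A1-13 and A1-11-12, and 0 in A1-6 and in all 5 fish of 4 d. Its mean was 84740 ± 44133 cpm at 2 d, 1164-fold above the 72.8 cpm that counting error alone allows at 4 d. This ratio, too, leaves out the spread between fish and is not a lower bound. The form of 21 nt went the other way in part: it was counted in A1-6 and A1-11-12 at 2 d and in A4-9 and A4-10 at 4 d, with 2863 counts in A4-9. Summed without the form of 22 nt, miR-1a-3p had a log2 fold change of 0.25 and an adjusted p of 0.980 in edgeR, a setting added after the counts had been seen. Leaving out a form counted only at 2 d raises the log2 fold change by construction. What remains includes the form of 21 nt in A4-9 and A4-10. The 20 other isomiRs together had from 0 to 5560 cpm at 2 d and from 186 to 2989 cpm at 4 d.

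In the test of isomiRs the form of 22 nt had the smallest p of 415, with a log2 fold change of −15.6 ± 2.48 (SE) and an adjusted p of 0.0628 in edgeR. The threshold was passed in DESeq2 (adjusted p = 1.1e-11) and, in edgeR, when 1 cpm was required in 5 samples (0.0448) and when A1-6 was left out (1.5e-05), but the form was counted in 5 fish, all of 2 d, and passed the filters only through that group, so these p-values are not independent support either. A form at 0 beside many counts of its neighbours was common in these libraries. Of the 30 highest names, 15 had their most abundant isomiR in all 11 libraries and 14 had it at 0 in at least 1 library that held 50 or more counts of their other isomiRs. The printed form of miR-21 was at 0 in 3 libraries and that of miR-451 in 4, and each library had between 3 and 8 such names. Of the 2011 sequences of the table, 112 were listed under more than 1 name. In the 11 libraries 84 of these were counted, in 204 pairs of a sequence and a library, of which 185 held counts under just 1 of the names, and 45 sequences were counted under different names across the libraries. Whether the form of 22 nt was counted under a name not analysed here in the fish where it stood at 0 was not tested.

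**Figure D2:**
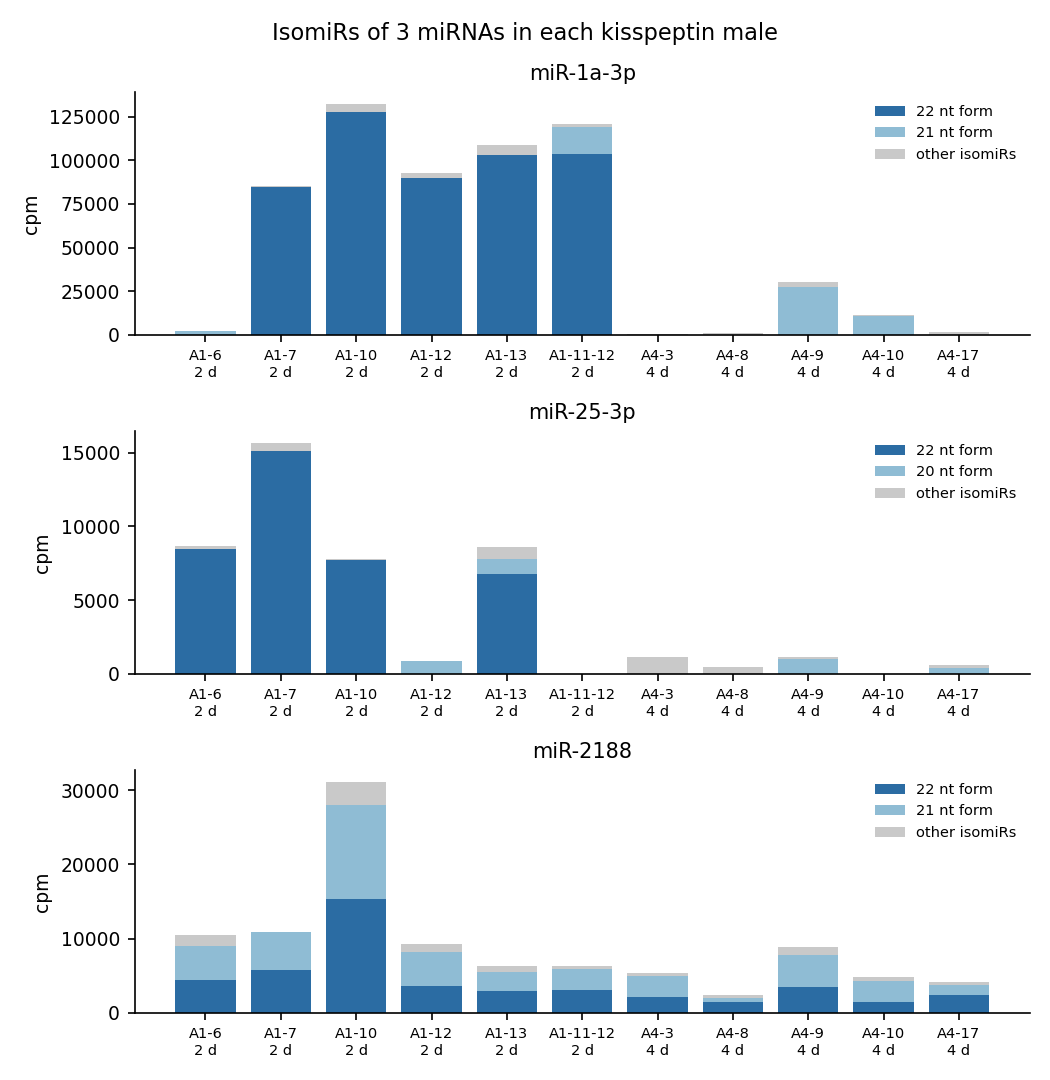
Level (cpm) of the isomiRs of 3 miRNAs in each kisspeptin male, stacked as the most abundant form, the second and all others. The miR-1a-3p form of 22 nt was counted in 5 of 6 fish at 2 d and in 0 of 5 at 4 d, that of miR-25-3p in 4 of 6 and 0 of 5, and that of miR-2188 in all 11.

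The other tested muscle miRNAs had differences of both signs, none at an unadjusted p under 0.05. miR-206-3p, found in skeletal muscle and carrying the same seed GGAATGT, had levels at 2 d of 11.47 at the lowest, 12.72 at the median and 13.34 at the highest, and 15.08, 11.39, 12.56, 14.21 and 8.35 at 4 d in the order of fish above. The fish of 4 d thus lay on both sides of those of 2 d (0.93 ± 0.84 on the log2 scale, adjusted p = 0.958 in edgeR). miR-1c, with that seed too, was at 0 in A1-6, between 48 and 201 counts in the 5 other fish of 2 d, and at 128, 13, 205, 44 and 46 counts at 4 d. Its log2 fold change was −0.53 ± 1.00. miR-133a-3p, transcribed with miR-1 in many vertebrates, was counted in 2 fish at 2 d and 3 at 4 d, and 409 of its 416 counts at 2 d were those of A1-10, so its log2 fold change of −3.19 ± 2.20 was carried by that fish. Of 8 muscle names 4 were tested, 1 higher and 3 lower at 4 d, with 1 at an unadjusted p under 0.05 (miR-1a-3p, against 4.81% of all names) and a median of −1.86 against −0.32 over all 104. The summed level of all 8 names, in log2(cpm + 1), was 13.44 in A1-6 and from 16.22 to 17.23 in the other fish of 2 d. At 4 d it was 15.13, 12.11, 14.95, 14.96 and 11.26. In the fish of 2 d other than A1-6 most of the sum was miR-1a-3p. Between the days the mean sum differed by −2.51 and the mean log2 cpm of the 4 tested names by −1.08.

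miR-30b, of a family found in many tissues, had 10, 3, 0 and 44, 79 and 68 counts at 2 d, in A1-7, A1-12 and A1-13 and in A1-6, A1-10 and A1-11-12. At 4 d it had 0, 0, 2, 1 and 9. The log2 fold change was −4.03 ± 1.64 (adjusted p = 0.678 in edgeR). Its printed form was counted in A1-6, A1-10 and A1-11-12 only, and without that form the log2 fold change was 0.15. Of the other names with the seed GTAAACA, miR-30c was at −0.83, miR-30d at −0.49 and miR-30e-5p at 0.41. Summed by number, miR-30 gave −0.50. Over the miR-30 list of 5 tested names, 1 was higher and 4 lower, with a median of −0.83 against −0.32 over all 104. miR-30a-3p, the opposite arm of another member, had −1.75 ± 1.14 and a single fish of 2 d, A1-7, at 0.

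miR-2188, a miRNA known from fish and other vertebrates outside the mammals, was the most evenly measured of the 5. Its level ran from 12.63 to 14.78 at 2 d around a median of 13.03, and was 12.45, 11.34, 12.76, 12.27 and 12.02 at 4 d. Of the 6 fish of 2 d, all but A1-13 lay above all 5 of 4 d. The log2 fold change was −1.35 ± 0.55 (adjusted p = 0.678 in edgeR) and −1.28 without its most abundant isomiR, and both its forms of 22 and 21 nt were counted in all 11 fish. Leaving out 1 fish at a time gave log2 fold changes from −1.51 to −0.90.

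miR-25-3p, of a cluster related to miR-17-92 and expressed in dividing cells, had 0 counts in A1-11-12 and 44 in A1-12, and between 304 and 897 in the other 4 fish of 2 d. At 4 d it had 160, 18, 115, 0 and 49. The log2 fold change was −3.49 ± 1.47 (adjusted p = 0.678 in edgeR). As in miR-1a-3p, the difference lay in the form of 22 nt, with 485, 865, 488 and 239 counts in A1-6, A1-7, A1-10 and A1-13 and 0 in the other 7 fish, and without it the log2 fold change was 0.59. The mean of that form at 2 d was 6347 ± 5735 cpm, 87.2-fold above the floor of 4 d, a ratio that leaves out the spread between fish. The adjusted p of the form was 0.426 in edgeR and 0.0014 in DESeq2. This form, too, was tested only because of its counts at 2 d, in exactly the 4 fish that the filter requires. The 17/25 cluster list held 4 tested names, 2 higher and 2 lower. Of these, 1 (miR-25-3p) had an unadjusted p under 0.05 in edgeR, against 4.81% of all names. As miR-25-3p was already 1 of the 5 names with the smallest p, this count is not a result about the cluster.

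The 15 further names among the 20 with the smallest p had unadjusted p-values between 0.0559 and 0.228 and an adjusted p of 0.958 each, with 6 of the 15 higher and 9 lower at 4 d. Some were carried by few fish. miR-204, known from the eye and kidney, had 659 and 1083 counts in A1-7 and A1-10, from 0 to 52 in the other fish of 2 d, and 83, 0, 36, 0 and 22 at 4 d, and its log2 fold change was −4.19 ± 2.01. miR-26a, with a log2 fold change of 1.23 ± 0.82, was at a level of 16.77 in A4-9 and at 14.29 or less in the other 10. miR-217, known from the pancreas, miR-20a-5p, of the miR-17-92 cluster, and miR-147b had few counts on both days. Over the fish of 2 d and 4 d these were 56 and 8, 22 and 7, and 28 and 3. miR-22b and miR-196a, a miRNA encoded among the Hox genes, had log2 fold changes of 2.35 ± 1.65 and −1.71 ± 1.32.

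**Figure D3:**
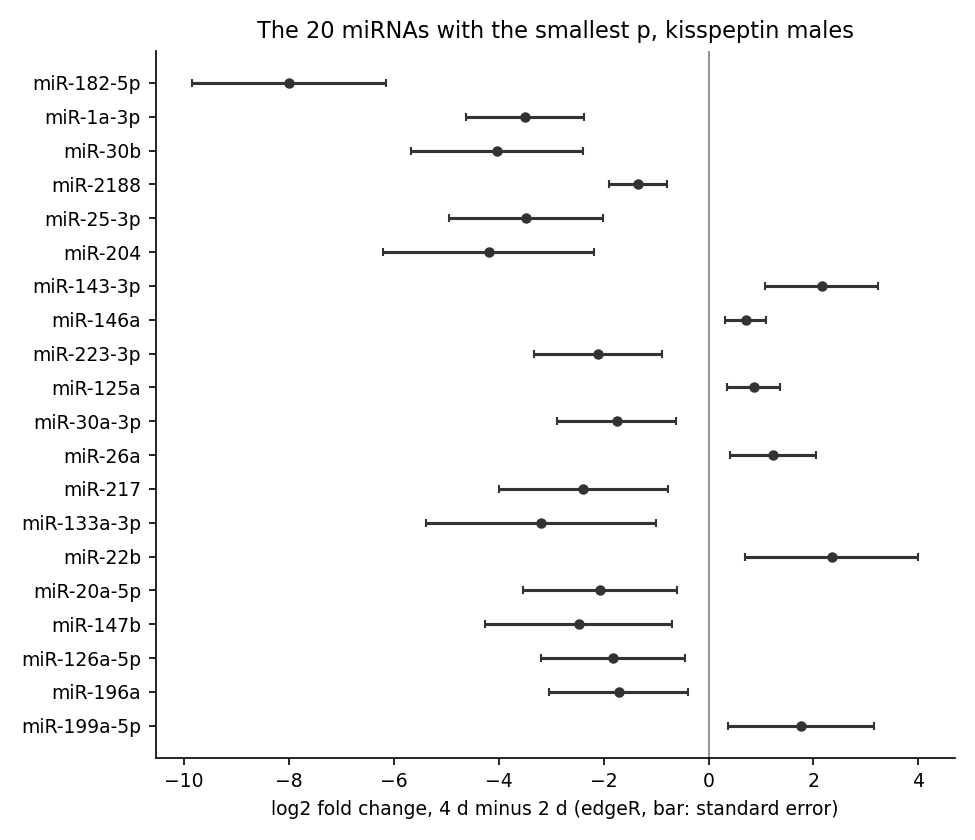
Log2 fold change between 4 d and 2 d (positive is higher at 4 d) with its standard error for the 20 miRNAs with the smallest p in edgeR, the smallest at the top. The first 5 are all negative, from −8.00 (miR-182-5p) to −1.35 (miR-2188), and 0 of the 20 passed the adjusted threshold.

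Of the red blood cell miRNAs, 3 were among the 10 highest names and the others were counted less. miR-451, which matures without Dicer in red cell precursors, was at 16.89 ± 1.47 (SD, n = 6) at 2 d and 16.72 ± 0.95 (n = 5) at 4 d, with a log2 fold change of −0.55 ± 0.66. miR-144-5p, from the same transcript, was at 14.74 ± 0.72 and 14.23 ± 0.61. miR-16b, abundant in red cells and elsewhere, was at 16.81 ± 0.30 and 16.49 ± 0.19 (log2 fold change −0.34 ± 0.28). miR-16a was at 0 counts in A1-6 and A4-8, miR-144-3p was at 0 in A1-7 and A1-12, and miR-16c had at most 7 counts in any fish. Of 6 names tested in the list 2 were higher and 4 lower, 0 at an unadjusted p under 0.05, with a median of −0.44. Over all 104 names tested, 43 were higher and 61 lower, 5 (4.81%) had an unadjusted p under 0.05 in edgeR and the median was −0.32. At that share a list of so few names would mostly hold 0. A count of 0 is therefore not a result about this list or the lists below. The summed level was 18.17 ± 0.78 at 2 d and 17.83 ± 0.43 at 4 d, highest in A1-6 at 19.39. The part of red cell rupture in these levels was not tested.

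Leukocyte miRNAs went both ways. miR-146a, which restrains innate immune signalling, was at 14.60, 15.20 and 15.73 at the lowest, median and highest at 2 d and at 16.45, 16.50, 14.89, 15.43 and 16.06 at 4 d. In 3 of 5 fish of 4 d it lay above every fish of 2 d (log2 fold change 0.71 ± 0.39, adjusted p = 0.958 in edgeR). miR-223-3p, of granulocytes, was at 9.92, 12.41 and 14.85 at 2 d and at 13.30, 8.80, 9.96, 5.77 and 10.34 at 4 d, and its log2 fold change was −2.11 ± 1.23, from −4.00 without A4-3 to −1.24 without A1-6. miR-150, of lymphocytes, and miR-142b, of blood cells in general, had log2 fold changes of 0.20 ± 0.92 and −0.32 ± 0.70. The 6 tested names of the list were 3 higher and 3 lower, 0 at an unadjusted p under 0.05, with a median of −0.06. The summed level of all 8 names of the list was 15.85 ± 0.62 at 2 d and 16.20 ± 0.66 at 4 d.

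Among endothelial and vessel wall miRNAs, miR-126a-3p, the main endothelial miRNA, was at 15.10 ± 0.71 at 2 d and 15.46 ± 0.43 at 4 d. Its opposite arm miR-126a-5p was counted in 6 of 6 fish at 2 d and 3 of 5 at 4 d. It had from 10 to 75 counts at 2 d and 0, 13, 6, 22 and 0 at 4 d. Pooled over the fish of a day these were 241 and 41 counts, 1.58% and 0.198% of both arms. The pooled shares weigh deep libraries more and give no spread between fish, and their difference was not tested. The log2 fold change of miR-126a-5p was −1.82 ± 1.37 (adjusted p = 0.958 in edgeR). miR-143-3p, of smooth muscle, was at 9.16, 12.12 and 14.32 at 2 d and at 14.16, 16.96, 14.79, 12.01 and 10.98 at 4 d (2.16 ± 1.08, adjusted p = 0.958 in edgeR), and the log2 fold change was 0.68 without A4-8. miR-145, encoded beside it, gave 0.35 ± 1.25, and both were highest in A4-8. Of 7 tested names 4 were higher and 3 lower, 0 at an unadjusted p under 0.05, with a median of 0.11.

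Liver and gut miRNAs varied between fish more than between days. miR-122-5p, the main liver miRNA, ran from 6.72 to 13.51 at 2 d and was 7.34, 13.95, 13.23, 12.86 and 9.15 at 4 d, so that both days held fish with low and fish with high levels, and its log2 fold change was 0.21 ± 1.16. miR-192, of gut and liver, was at 11.81 ± 0.77 and 12.19 ± 0.92. The 4 tested names were 3 higher and 1 lower, 0 at an unadjusted p under 0.05, with a median of 0.15. The summed level of all 6 names of the list was 13.13 ± 0.75 at 2 d and 13.13 ± 1.44 at 4 d.

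Of the connective tissue miRNAs, miR-199a-3p was at 10.05 ± 2.43 and 10.28 ± 2.71 and miR-214-3p, from the same transcript, at 9.51 ± 2.50 and 9.63 ± 1.09. miR-199a-5p had 86 counts at 2 d and 359 at 4 d, of which 271 were in A4-9 (1.76 ± 1.40). Of these 3 tested names 2 were higher and 1 lower, 0 at an unadjusted p under 0.05. The connective tissue list held miR-214-5p too, with 12 and 7 counts, which was not tested.

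Epithelial miRNAs were set apart in 1 fish. In A4-8 every name of the list stood at 0 counts, among them miR-203a and miR-203b-3p, of skin, and miR-200a-3p, miR-200b-3p and miR-200c, of epithelia. The summed level ran from 10.52 to 12.92 at 2 d and from 11.26 to 12.64 in the 4 other fish of 4 d, and its mean at 4 d was 9.76 with A4-8 and 12.20 without it, against 12.00 at 2 d. A4-8 had the second smallest total of the 11 libraries, 41197, and the fewest names, 59. The smallest library, A1-13, had 83 names and an epithelial sum of 11.77. At the depth of that library 58.7 names were expected in A4-8 and from 73.6 to 106 in the other fish. The cause of the 0 counts in A4-8 was not tested. Of 9 tested names 3 were higher and 6 lower, 0 at an unadjusted p under 0.05, with a median of −0.13.

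Neural and sensory miRNAs were thinly counted, with 6 of 19 names tested. Of these, 1 was higher and 5 lower, 0 at an unadjusted p under 0.05, with a median of −1.12. Over all 104 names, 43 were higher and 61 lower, 4.81% had such a p in edgeR and the median was −0.32. The neural and sensory list held miR-183 but not miR-182-5p, the name with the smallest p of all 104. miR-181a-5p and miR-181b, of lymphoid and neural cells, were each counted in 3 fish at 2 d and 3 at 4 d. Among the miRNAs of the reproductive axis, miR-202-5p, the gonad miRNA of fish, was the highest, at 3.71, 9.01 and 10.94 at 2 d and 8.28, 8.88, 7.28, 10.49 and 10.21 at 4 d. Its log2 fold change of 0.02 ± 1.16 was the nearest to 0 relative to its error of all 104 names. The reproductive list held 5 tested names, 2 higher and 3 lower, 0 at an unadjusted p under 0.05, with a median of −0.13, and 4 of the 5 are also epithelial names.

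**Figure D4:**
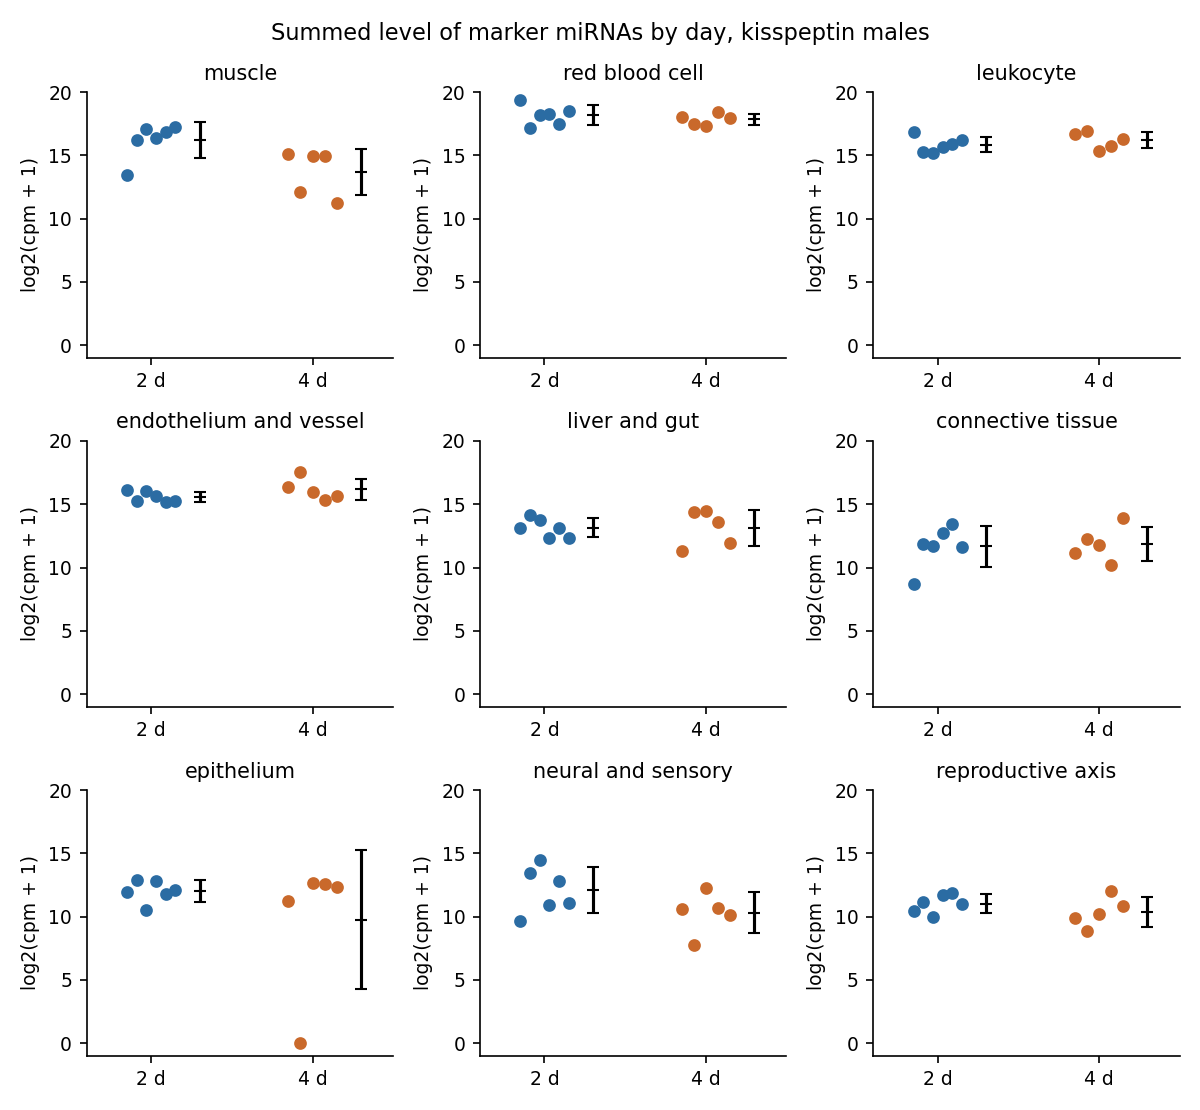
Summed level of the miRNAs of 9 lists in each kisspeptin male, in log2(cpm + 1), with mean and SD beside the points. The muscle sum was from 16.22 to 17.23 in 5 of 6 fish at 2 d, where most of it was miR-1a-3p. It was 13.44 in A1-6 and at most 15.13 at 4 d, and the epithelial sum was 0 in A4-8.

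Of the remaining high names, miR-22a, with the highest mean log2 level of the names analysed here, was at 16.77 ± 0.51 at 2 d and 16.95 ± 0.41 at 4 d (0.16 ± 0.33), and miR-15a, with the seed AGCAGCA of miR-16b, at 14.49 ± 0.45 and 14.15 ± 0.19. miR-21 varied more, from 13.19 to 17.97 at 2 d and from 15.02 to 18.20 at 4 d (0.52 ± 0.72), and miR-125a had 0.87 ± 0.51. miR-3963 ran from 13.73 to 16.34 at 2 d and from 12.72 to 15.57 at 4 d (−0.32 ± 0.62). Among the 104 tested names 18 seeds were shared by 2 or more names, 46 names in all. Names with one seed could differ in sign, as miR-125a (0.87 ± 0.51) and miR-125b-5p (1.08 ± 1.34) did from miR-125c (−1.11 ± 1.43). The values of miR-125b-5p and miR-125c were smaller than their standard errors. Whether signs within a seed were more mixed than over all names was not tested.

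At the level of isomiRs, 0 of 415 passed in edgeR, 15 had an unadjusted p under 0.05 (3.61%), 2 of them higher (0.482%) and 13 lower (3.13%), and DESeq2 called 4 (0.964%), all lower at 4 d, while limma-voom called 0. Beside the forms of miR-1a-3p and miR-25-3p, the DESeq2 calls were 2 shortened forms whose first base lies inside the main form. The one of miR-206-3p had 0, 26, 3, 11, 14 and 51 counts at 2 d and 0 in all 5 fish of 4 d, and entered the test only through the fish of 2 d. The one of miR-16b, of 18 nt, had 11 to 22 counts in all 6 fish of 2 d and 8, 0, 4, 1 and 4 at 4 d, while the name as a whole had a log2 fold change of −0.34.
miR-206-3p of 21 nt: gGAATGTAaggaagtgtgtgg
miR-16b of 18 nt: aGCACGTAaatattggag
A 5′ end moved inward gives a different seed, GAATGTA and GCACGTA here. In edgeR their adjusted p-values were 0.426 and 0.724. The form with the smallest p among those higher at 4 d was a 23 nt isomiR of miR-25-5p, at 0 in all 6 fish of 2 d and at 6, 0, 3, 4 and 4 counts at 4 d (adjusted p = 0.616), and a miR-182-5p isomiR of 22 nt had the same adjusted p. The miR-25-5p form entered the test only through the fish of 4 d, and the miR-182-5p form only through those of 2 d. Without a filter on low counts edgeR called 19 of 1427 isomiRs, 4 of them higher at 4 d.

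In control males the day difference had 0 of 125 names past the threshold in edgeR, with 8 (6.4%) at an unadjusted p under 0.05, 6 higher (4.8%) and 2 lower (1.6%). In this fit of 20 males the kisspeptin males had 0 as well, with 10 (8%) at an unadjusted p under 0.05, 1 higher (0.8%) and 9 lower (7.2%). The difference between the day differences of kisspeptin and control males was tested as an interaction. In edgeR 0 of 125 names passed and 12 (9.6%) had an unadjusted p under 0.05. limma-voom called 0 and DESeq2 called 2 (1.6%), miR-1a-3p and miR-199a-5p. Each group of males by treatment and day came from a single tank, so the interaction cannot be told apart from differences between tanks.

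The 5 names with the smallest interaction p were miR-1a-3p, miR-29b, miR-223-5p, miR-199a-5p and miR-182-5p. miR-1a-3p had counts of 153, 410, 7 and 15 in the control males of 2 d and of 1119, 702, 9240, 1564 and 78 in those of 4 d, so the controls were low where most kisspeptin males were high. Its day difference was −3.42 ± 1.25 (SE) in kisspeptin males and 3.74 ± 1.42 in controls, and the interaction had an adjusted p of 0.141 in edgeR, 0.00184 in DESeq2 and, without A4-9, 0.0305 in edgeR. Over all its alternatives the interaction of miR-1a-3p ran from −8.52 to −5.62, with adjusted p-values up to 0.311. Those alternatives did not include the sum without its most abundant isomiR, on which the day difference in kisspeptin males largely rested. Which isomiRs made up the control counts was not examined. miR-182-5p was counted in 3 of 4 control males at 2 d, with at most 40 counts, and in 4 of 5 at 4 d, with at most 25. Its day difference was −0.76 ± 1.60 in controls, and the interaction was −7.14 ± 2.34 (adjusted p = 0.176 in edgeR).

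miR-199a-5p lay at 57 to 167 counts in the 4 control males of 2 d and at 0, 15, 5, 8 and 19 in those of 4 d. Its day difference was −3.83 ± 1.48 in controls against 1.94 ± 1.26 in kisspeptin males, with an interaction of 5.76 ± 1.93 (adjusted p = 0.176 in edgeR and 0.0162 in DESeq2). Over all its alternatives this interaction ran from 1.18, in the sum of all names numbered miR-199, to 6.76, with adjusted p-values up to 0.835. miR-29b and miR-223-5p rested on few counts: at most 36 in any male, with 0 in all kisspeptin males of 4 d and in all control males of 2 d. The day difference of miR-2188 was −1.32 ± 0.57 in kisspeptin males and −0.44 ± 0.61 in controls (adjusted p = 0.531 and 0.863 in edgeR). miR-30b and miR-25-3p had 3.07 ± 2.03 and 0.78 ± 1.51 in controls. The interactions of miR-30b, miR-2188 and miR-25-3p had adjusted p-values of 0.311, 0.824 and 0.555.

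**Figure D5:**
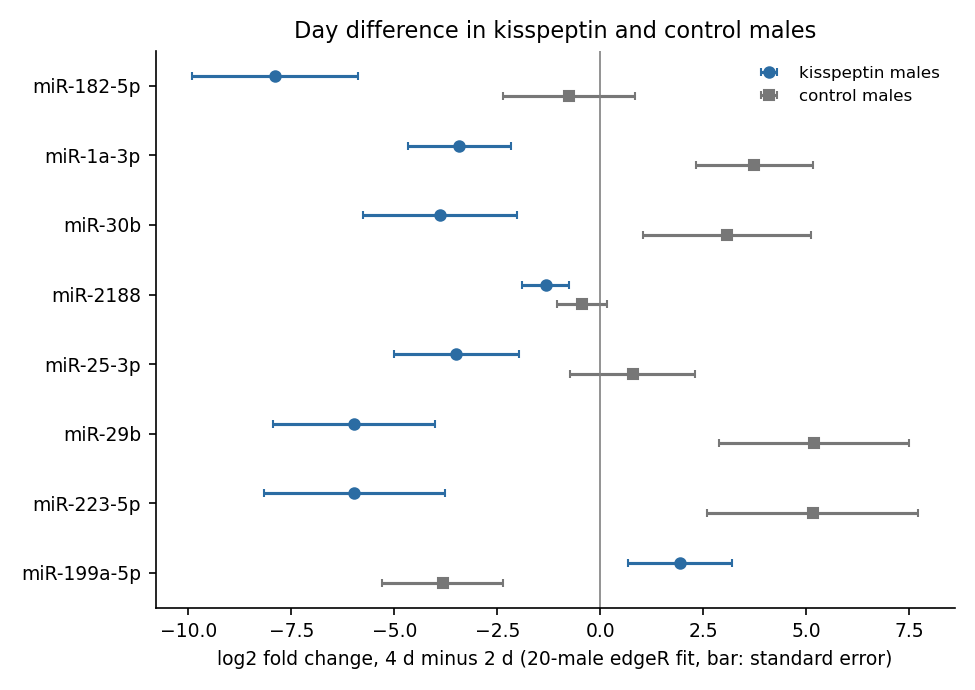
Log2 fold change between 4 d and 2 d with its standard error in kisspeptin males (circles, 6 and 5 fish) and control males (squares, 4 and 5 fish), for the 5 names with the smallest p in kisspeptin males and the 5 with the smallest interaction p, which share miR-182-5p and miR-1a-3p. miR-1a-3p was at −3.42 and 3.74 and miR-199a-5p at 1.94 and −3.83, and 0 interactions passed the adjusted threshold in edgeR.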

How the data were processed

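Plasma small RNA was sequenced from individual fish, which the labels place in groups. With Cutadapt the authors trimmed the adapter and then 4 random bases from both ends of the reads, and bowtie2 (k = 10) mapped the reads to hairpins of miRBase 21. The submitters' processing notes name cutadapt 2.1, Bowtie2 2.4.1 and HTSeq 0.6.0, while the paper gives another version of Cutadapt. The authors deposited isomiR counts without normalization, whole numbers per library. Which reference species each name came from is not given in the sources used here.

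Here isomiR counts were summed to miRNA names and compared in edgeR 4.0.16 by quasi-likelihood F tests, run under R 4.3.3 beside limma 3.58.1, with TMM factors over the 11 libraries, at least 1 cpm in 4 samples and Benjamini-Hochberg adjusted p under 0.05. The standard error was the log2 fold change divided by the square root of F. Control males were compared in a fit of 20 males. limma-voom, DESeq2 1.42.0, other filters and scalings, and each fish left out were alternatives. List sums are of cpm scaled with the TMM factors. The cpm of single isomiR forms, the floors in cpm and the means in cpm set against a floor are without TMM. The edgeR steps were tested on simulated data with dispersions below the 1.79 of the names here. That test therefore does not cover the spread of these libraries. Among 25 pairs of libraries of one day, 0 were identical. Figures used matplotlib 3.10.9.

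Names in the text are the 10 highest, the 20 with the smallest p, the 4 highest of each marker list, the miR-1 names, and the 5 with the smallest p among interactions and among isomiRs. Values given in a run at 4 d follow the order A4-3, A4-8, A4-9, A4-10, A4-17. The members and lists were chosen with earlier results of these data known.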

Additional observations from a re-analysis of the deposited data

Results flagged for a closer look

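The values examined were 125 sets (63 measures, each in the fish of 2 d and in those of 4 d, apart from sets in which all fish were equal). In 18 of them the highest or lowest fish was set apart from the rest of its day by Dixon's criterion. For independent sets with a normal spread the criterion flags about 1 in 20, or 6.25. Some sets here share reads and some hold fish tied at 0 counts, so 18 cannot be read as an excess over 6.25. A1-6 stood low at 2 d in miR-1a-3p (11.59 log2 cpm), in miR-1c (3.71, a count of 0) and in the summed muscle level (13.44 log2(cpm + 1)), and high in miR-150 (15.40) and miR-3963 (16.34). A4-8 stood low at 4 d in the summed epithelial level (0), in miR-203b-3p (3.71) and in miR-15a (13.83), and high in miR-145 (11.49). A4-9 stood low at 4 d in miR-21 (15.02), in miR-125a (13.99) and in the percent of counts in its 10 highest names (69.8). A1-10 was the fish of 2 d at 0 in miR-182-5p (3.71), and A1-7 was low in miR-30a-3p (3.71) and high in miR-215 (9.34). A4-10 was low in miR-25-3p (3.71) and high in miR-147b (6.23), and A4-17 was low in miR-16b (16.16). That value of miR-147b was 3 counts, which a count of 0 also allows. Causes of these values were not tested.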

How the results depend on the processing

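Depth limits the low names: 3 counts are 19.03 to 84.7 cpm. No paired analysis was possible because the labels number fish, and the fish of the 2 d and 4 d groups are different animals. Day and tank cannot be told apart. The count of miRNAs past the threshold, 0 in edgeR, was 1 in limma-voom and 1 in DESeq2, and 0 to 1 when 1 fish was left out (1 without A1-10, miR-182-5p). The isomiR count, 0 in edgeR, was 4 in DESeq2, 1 with 1 cpm in 5 samples, 19 without a filter (where 1427 were tested, 339 of them at an unadjusted p under 0.05) and 0 to 1 with 1 fish left out (1 without A1-6, the miR-1a-3p form of 22 nt). The interaction count, 0 in edgeR, was 2 in DESeq2 and 0 to 1 with 1 fish left out (1 without A4-9, miR-1a-3p). Leaving out 1 fish moved the difference of reads of 21 and 22 nt between −0.70 and 2.54 percentage points (negative without A1-10 and without A4-8) and that of expected names between −1.49 (without A4-9) and 10.4. The separation p ran from 0.232 to 0.767 over its alternatives. Named miRNAs that changed sign did so with an adjusted p of at least 0.94. In limma-voom these were miR-133a-3p (0.17), miR-145 (−0.30), miR-16a (−0.75), miR-1c (0.20), miR-203b-3p (−0.34), miR-206-3p (−0.086), miR-214-3p (0.013), miR-215 (0.51) and miR-222a-3p (0.70). DESeq2 turned miR-200c (0.16). Without scaling factors miR-200c (0.075), miR-202-5p (−0.016) and miR-203a (0.055) turned, with 1 cpm in all samples miR-222a-3p (0.085), without a filter miR-200c (0.082), miR-203a (0.060) and miR-222a-3p (0.14), and with at least 10 counts miR-122-5p (−0.011). miR-203a turned in the fit of 20 males (0.029) and of 30 libraries (0.029). Summed by number, miR-126a-5p (0.26), miR-150 (−0.024), miR-16a (−0.29) and miR-203a (0.012) turned. Without the most abundant isomiR, a setting chosen after seeing the data, miR-1a-3p (0.25), miR-30b (0.15), miR-25-3p (0.59), miR-133a-3p (2.18), miR-16a (−0.90), miR-181a-5p (2.69), miR-183 (−1.34), miR-214-3p (0.58), miR-26a (−0.65) and miR-3963 (0.12) turned. With 1 fish left out, the log2 fold change had both signs in miR-122-5p (−0.45 to 0.53), miR-194a (−0.58 to 1.13), miR-200c (−1.85 to 0.47), miR-202-5p (−0.28 to 0.66), miR-3963 (−0.75 to 0.27), miR-451 (−0.77 to 0.27), miR-150 (−0.42 to 1.68), miR-203a (−0.50 to 0.29), miR-222a-3p (−0.27 to 0.25), miR-133a-3p (−3.64 to 1.54), miR-181b (−1.56 to 0.21), miR-145 (−2.04 to 0.90), miR-16a (−2.70 to 1.86), miR-192 (−0.041 to 0.69), miR-26a (−0.58 to 1.59), miR-199a-3p (−1.12 to 1.40) and miR-22a (−0.11 to 0.26). The causes were not tested.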
